A study of Homo sapiens with 12 samples.

Results

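The experiment described here asked, for every gene, whether the response of MCF10A cells to XMU-MP1 differed when YAP and TAZ had been depleted. For each gene the log2 effect of XMU-MP1 in control siRNA was subtracted from its log2 effect after YAP/TAZ siRNA, and this log2 difference was tested over all 12 libraries, and again over the 11 libraries left without the shallow library siYT_XMU c. Of the 46931 genes in the deposited table, 18143 passed the filter on low counts and were tested with all 12 libraries. MCF10A is an immortalised, non-tumour human mammary epithelial line, labelled wild type. XMU-MP1 is an inhibitor of the kinases MST1 and MST2. The groups, of 3 libraries each, were YAP/TAZ siRNA with XMU-MP1 (siYT_XMU), YAP/TAZ siRNA with DMSO (siYT_DMSO), control siRNA with XMU-MP1 (siC_XMU) and control siRNA with DMSO (siC_DMSO). Every culture received siRNA with a lipid transfection reagent. The siRNA sets against YAP and TAZ were given at 11 nM and the control siRNA at 22 nM. The medium was replaced 48 h after transfection by medium with 5 µM XMU-MP1 or DMSO, and RNA was taken 6 h later. The medium held serum, insulin, hydrocortisone and epidermal growth factor. The libraries carry letters a, b and c, and the labels do not say whether a letter stands for a separate culture, so p-values measure the spread between these libraries. The knockdown is transient and partial, and the labels do not say which siRNA set each library received.

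MST1 and MST2 (genes STK4 and STK3) stand at the head of the Hippo kinase cascade. They activate LATS1 and LATS2, which phosphorylate the transcriptional co-activators YAP, encoded by YAP1, and TAZ, encoded by WWTR1, and so keep them out of the nucleus. Unphosphorylated YAP and TAZ enter the nucleus and act mainly through TEAD transcription factors, for which CCN1 and CCN2 are well known target genes. An MST inhibitor is therefore often used to raise YAP and TAZ activity, and the present design separates drug responses that differ between cells with and without their usual YAP and TAZ from those that do not.

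Levels below are CPM, that is deposited counts scaled to library size with TMM factors and to a fixed total, and they are compared between groups within a gene. The library siYT_XMU c stood apart, with 8243351 counts against 25246464 to 67953633 in the other 11, counts for 15135 genes against 17950 to 20704, and 35.0% of its counts on ribosomal RNA genes against 1.02 to 8.35%. A count of 0 allows 3 counts, which is 0.622 CPM in that library and 0.0382 to 0.13 CPM in the others, for counting error alone. Ribosomal RNA also took 2.65 to 35.0% of counts in siYT_XMU, 1.86 to 8.35% in siYT_DMSO, 1.02 to 2.52% in siC_XMU and 1.05 to 2.15% in siC_DMSO. With ribosomal RNA genes and SLCO5A1, a gene with a high share of counts in the same library, left out, 469 genes were called in the difference, of which 468 were among the 470 called with them. The labelled cell type was checked against its markers. KRT5, a basal keratin, lay between 1029.6 and 5085.5 CPM and CDH1, the epithelial cadherin, between 126 and 783 CPM over the 12 libraries. KRT14, another basal keratin, was lower, between 8.24 and 92.8 CPM, and the epithelial gene EPCAM lay between 80.9 and 230 CPM. The leukocyte gene PTPRC lay between 0 and 5.59 CPM and the endothelial gene PECAM1 between 0.0802 and 8.49 CPM, while COL1A1, a fibroblast collagen, lay between 9.57 and 67.3 CPM. In such bulk RNA, fewer cells of a type and less RNA per cell cannot be told apart.

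The targeted transcripts were checked in every library. YAP1 (chr11:102109957-102233424, GRCh38.p13) gave 6.63, 3.81 and 5.39 CPM in siYT_XMU, 12.6, 9.09 and 7.84 CPM in siYT_DMSO, 132, 135 and 142 CPM in siC_XMU, and 201, 223 and 193 CPM in siC_DMSO. WWTR1 gave 2.11, 1.24 and 0 CPM in siYT_XMU, 4.30, 4.47 and 3.66 CPM in siYT_DMSO, 56.9, 60.3 and 56 CPM in siC_XMU, and 34.6, 24 and 38.2 CPM in siC_DMSO. Every library with YAP/TAZ siRNA lay below every library with control siRNA for both transcripts, in XMU-MP1 and in DMSO. Within the knockdown arm the remaining YAP1 and WWTR1 transcripts were lower with XMU-MP1 than with DMSO, by log2 values of -0.90 (edgeR adjusted p = 0.0221) and -1.62 (edgeR adjusted p = 0.0463). The log2 difference between the arms was -0.31 ± 0.31 (SE, edgeR adjusted p = 0.655, and 0.599 without siYT_XMU c) for YAP1. For WWTR1 it was -2.46 ± 0.65 (SE, edgeR adjusted p = 0.0664, and 0.0132 without siYT_XMU c), past the threshold in the smaller set of libraries but not in the full one. With all 12 libraries WWTR1 did pass in edgeR without a filter on low counts, under DESeq2 and on log2 FPKM with 1 added. It also passed without siYT_XMU a.

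The kinases of the pathway were not called in the difference with all libraries in edgeR. STK3, the MST2 gene, had a log2 difference of 0.13 ± 0.30 (SE, edgeR adjusted p = 0.883, and 1 without siYT_XMU c), and STK4, the MST1 gene, of -0.22 ± 0.41 (SE, edgeR adjusted p = 0.85, and 0.61 without siYT_XMU c). STK3 gave 8.16, 6.40 and 9.74 CPM in siYT_XMU and 7.42, 6.59 and 6.45 CPM in siYT_DMSO. In control siRNA STK3 gave 23.1, 26.1 and 29.4 CPM in siC_XMU and 25.4, 26.4 and 21.5 CPM in siC_DMSO. Every siYT library lay below every siC library for STK3, and the part of its lower level in the results was not tested. For STK4 the siRNA arms overlapped in XMU-MP1 and in DMSO. LATS1 had 14.1, 9.82 and 38.3 CPM in siYT_XMU, 21.9, 16.1 and 20.8 CPM in siYT_DMSO, 39.6, 32.8 and 39.9 CPM in siC_XMU, and 30.5, 27.2 and 23.1 CPM in siC_DMSO, so that siYT_XMU c lay far above its own group, and its difference was -0.43 ± 0.56 (SE, edgeR adjusted p = 0.756, and 0.0464 without siYT_XMU c). LATS2, a LATS kinase that is itself a YAP and TAZ target, gave 3.52, 4.85 and 7.04 CPM in siYT_XMU, 6.01, 7.31 and 7.30 CPM in siYT_DMSO, 29.7, 46.8 and 44.8 CPM in siC_XMU, and 21.3, 21.4 and 22 CPM in siC_DMSO. Its transcript was higher with XMU-MP1 in control siRNA, where the groups did not overlap, with a log2 effect of 0.91 (edgeR adjusted p = 0.0484), and had a log2 effect of -0.46 (edgeR adjusted p = 0.296) after YAP/TAZ siRNA. The difference for LATS2 was -1.37 ± 0.37 (SE, edgeR adjusted p = 0.0735, and 0.0227 without siYT_XMU c), so that its call in edgeR depended on siYT_XMU c. Its call depended on the method as well. With all 12 libraries LATS2 was called under DESeq2, voom with sample quality weights and log2 FPKM with 1 added.

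CCN1 and CCN2, which encode secreted matricellular proteins, were both called higher with XMU-MP1 after YAP/TAZ siRNA, and CCN2 also in control siRNA. CCN2 gave 0.968, 6.94 and 18 CPM in siYT_XMU, 1.08, 0.503 and 0.562 CPM in siYT_DMSO, 51.5, 219 and 261 CPM in siC_XMU, and 4.39, 6.43 and 8.43 CPM in siC_DMSO. The siYT_XMU libraries spread widely, and siYT_XMU a lay within the siYT_DMSO range. The log2 effect was 3.53 (edgeR adjusted p = 0.0264) after YAP/TAZ siRNA and 4.79 (edgeR adjusted p = 0.00672) in control siRNA, with a difference of -1.26 ± 1.16 (SE, edgeR adjusted p = 0.624, and 0.252 without siYT_XMU c). CCN1 gave 11, 63 and 42.5 CPM in siYT_XMU, 2.54, 1.08 and 2.48 CPM in siYT_DMSO, 125, 229 and 276 CPM in siC_XMU, and 61.6, 61.3 and 75.4 CPM in siC_DMSO. The siYT_XMU libraries lay above all siYT_DMSO libraries and below all siC_XMU libraries. Its log2 effect was 4.26 (edgeR adjusted p = 0.00103) after YAP/TAZ siRNA and 1.67 (edgeR adjusted p = 0.067) in control siRNA, with a difference of 2.60 ± 0.74 (SE, edgeR adjusted p = 0.0843, and 0.0979 without siYT_XMU c). The CCN1 difference was called without siYT_XMU a (edgeR adjusted p = 0.0152), and under DESeq2 with all 12 libraries. The CCN2 promoter is shown because it carries the TEAD motif searched for. The window runs from 250 bases before to 50 bases after the RefSeq start site (GRCh38.p14, chr6:131951323-131951622, minus strand), with the motif GGAATG, on either strand, in capitals.
CCN2: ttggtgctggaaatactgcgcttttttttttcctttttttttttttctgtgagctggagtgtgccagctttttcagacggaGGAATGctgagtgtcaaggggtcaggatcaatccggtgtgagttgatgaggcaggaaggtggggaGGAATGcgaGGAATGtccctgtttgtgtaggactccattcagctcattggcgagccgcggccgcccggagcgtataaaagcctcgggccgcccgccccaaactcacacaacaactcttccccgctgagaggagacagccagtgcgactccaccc
The motif occurs 3 times in this window, and 11.5% of the promoters of tested genes with such a window hold it.

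TP63, the epidermal and basal lineage transcription factor named in the title of the series, gave 3.58, 3.25 and 12.4 CPM in siYT_XMU, 23.9, 10.8 and 19.7 CPM in siYT_DMSO, 3.03, 4.17 and 2.22 CPM in siC_XMU, and 28.3, 28.8 and 22.4 CPM in siC_DMSO. Its counts cover all transcripts of the gene, so that the deltaN and TA forms are not told apart. The log2 effect of XMU-MP1 was -1.58 (edgeR adjusted p = 0.0615) after YAP/TAZ siRNA and -3.08 (edgeR adjusted p = 0.00415) in control siRNA. In the knockdown arm siYT_XMU c, at 12.4 CPM, overlapped the siYT_DMSO libraries, while siYT_XMU a and b lay below them. The difference was 1.5 ± 0.69 (SE, edgeR adjusted p = 0.271, and 0.421 without siYT_XMU c). Of 34 tested genes in a list of TP63 and its targets, 1 was higher in the difference and 0 were lower, against 0.86% and 1.73% of all genes, and none was called without siYT_DMSO b or c, or without any siC library. The list's median difference was 0.53 against 0.067 over all genes tested. Without single libraries the list's median ran from 0.28 (without siYT_XMU c) to 0.63 (without siYT_DMSO c). Without siYT_XMU c, 1 member was higher and 1 lower.

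**Figure D1:**
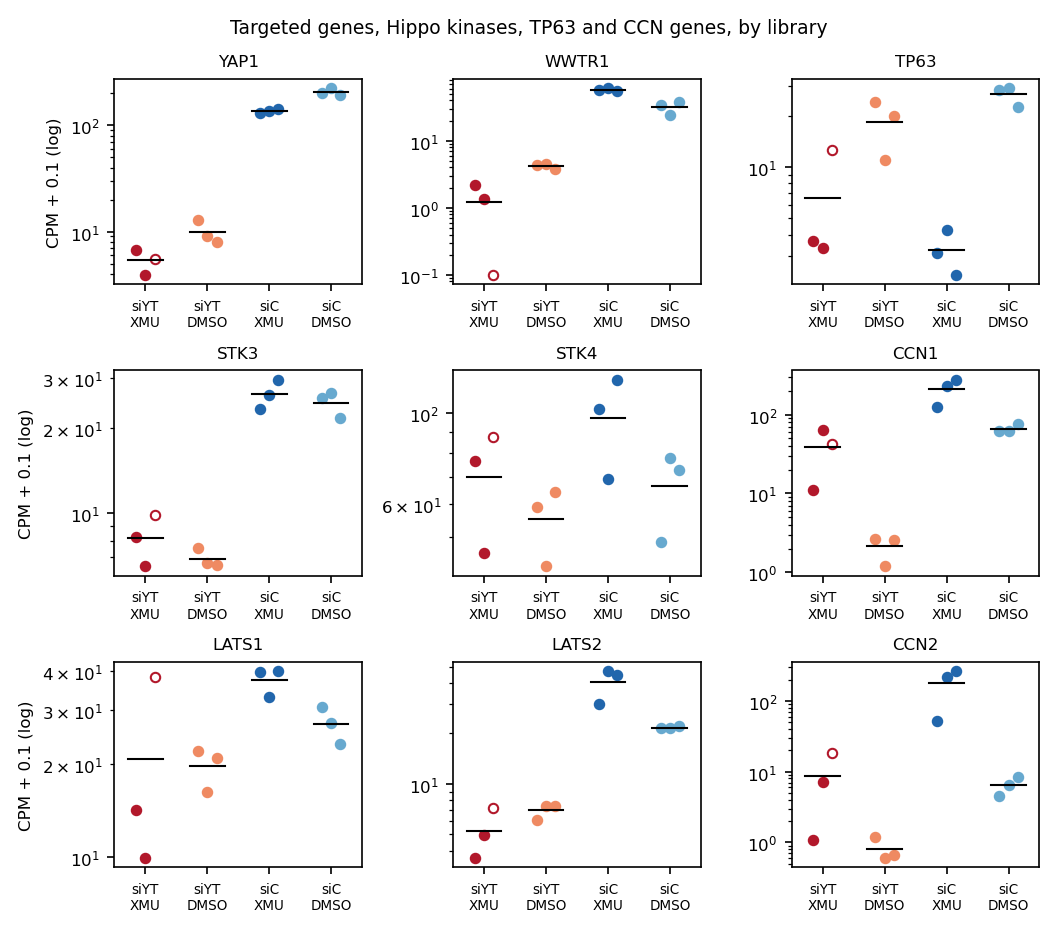
CPM plus 0.1 on a log axis for 9 genes in the 12 libraries, with siYT groups left and siC groups right. Points are libraries, the open point is siYT_XMU c and bars are group means. YAP1 and WWTR1 are low in all 6 siYT libraries, CCN2 is higher with XMU-MP1 in both arms on average, and LATS2 is higher with XMU-MP1 in the siC arm.

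The difference passed an adjusted p of 0.05 for 470 genes, 2.59% of those tested. It was higher after YAP/TAZ siRNA for 156 genes (0.86%) and lower for 314 genes (1.73%). Within the arms, XMU-MP1 raised 761 genes (4.19%) and lowered 1437 (7.92%) after YAP/TAZ siRNA, and raised 725 (4%) and lowered 955 (5.26%) in control siRNA. Under upper quartile scaling these counts were 1231 raised and 1078 lowered after YAP/TAZ siRNA, against 801 and 969 in control siRNA, and under RLE scaling 929 and 1313, against 754 and 1011. Without single libraries they ran from 372 (without siYT_DMSO c) to 1277 (without siYT_XMU c) raised and from 787 to 1608 lowered, without the same libraries, after YAP/TAZ siRNA. In control siRNA they ran from 260 (without siC_XMU b) to 1134 (without siYT_XMU c) raised and from 369 to 1527 lowered, without the same libraries. Without siYT_XMU c, 19211 genes could be tested and 398 were higher (2.07%) and 608 lower (3.16%). Of the 470 genes, 462 were called in the same direction without siYT_XMU c. Under upper quartile scaling, which moves the median difference over all genes to 0.22 from 0.067, 51.35% of 483 calls were higher, against 33.19% of the 470 calls under TMM, so the balance of directions depends on the scaling.

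The calls were sorted by what happened in each arm, and the numbers in each class are descriptions of these calls. In 72 genes a rise seen in control siRNA was lost, that is called in control siRNA and neither called nor as large after YAP/TAZ siRNA. In 82 genes a fall was lost by the same rule. A rise was gained, called after YAP/TAZ siRNA and neither called nor as large in control siRNA, in 49 genes, and a fall was gained in 194. In 36 genes the effect was called in both arms with opposite signs, which is termed reversed. A further 9 genes had a weakened and 15 a strengthened response of the same sign, and 13 fitted no class. Without siYT_XMU c the classes held 149 lost rises, 213 lost falls, 120 gained rises, 344 gained falls and 77 reversed responses, and 402 of the 470 genes stayed in their class. The DMSO levels differed as well. Among the 72 lost rises, the mean of siYT_DMSO lay above that of siC_DMSO in 66, and among the 194 gained falls in 156. The same held for only 28 of the 82 lost falls and 11 of the 49 gained rises. Since both means enter the difference by which these genes were called, the counts are given without a test, and without a share over all genes.

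**Figure D2:**
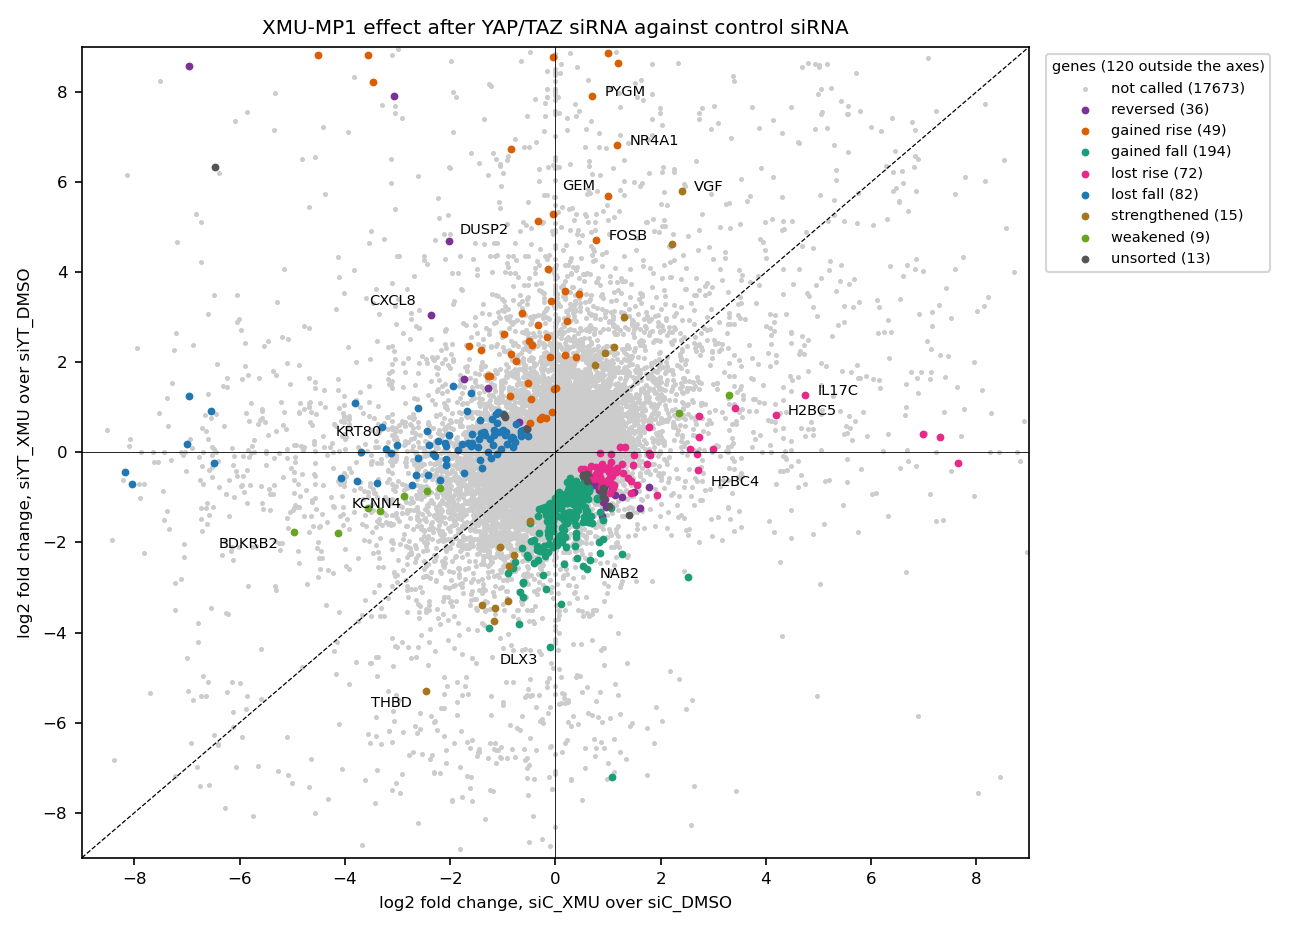
Log2 fold change of siYT_XMU over siYT_DMSO (vertical) against siC_XMU over siC_DMSO (horizontal) for the 18143 tested genes, of which 120 fall outside the axes. Coloured points are the 470 genes called in the difference, by class, and the dashed line marks equal effects. Lost falls lie to the left and lost rises to the right near a vertical value of 0, gained rises at the top, gained falls at the bottom, and reversed responses in the upper left and lower right.

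The arms share no library, so their effects can be set side by side. Of the 1680 genes called in control siRNA, 1348 (80.2%) had an effect of the same sign after YAP/TAZ siRNA, and 593 were called there as well. Of the 2198 genes called after YAP/TAZ siRNA, 1650 (75.1%) had the same sign in control siRNA. Over all 18143 genes tested the signs were the same for 60.5%. The 593 genes called in both arms had the same sign in 557 cases and opposite signs in 36. Of the 1680 genes called in control siRNA, 214 (12.7%) were called in the difference, so for most of the drug-responsive genes no dependence on the knockdown was detectable with these libraries. Across all genes tested the effects in the 2 arms had a Pearson r of 0.309, and of 0.256 without siYT_XMU c, given as a description across genes, which are not independent and share library depth.

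The number of calls depended on single libraries. Without siYT_XMU c, 1006 genes were called, and without siYT_XMU a or b 656 and 487. Without siYT_DMSO a, b or c there were 436, 96 and 118 calls. Without siC_XMU a, b or c there were 371, 100 and 96, and without siC_DMSO a, b or c 156, 86 and 91. Of the 53 genes chosen by the naming rule that were called, 17 were called without each of the 12 libraries in turn. These were H2BC4, H2BC5, KRT80, KCNN4, CCND1, FOSB, PYGM, IER3, PFKFB3, NAB2, PLPP3, DUSP2, CXCL8, VPS9D1-AS1, TRIM62, GPRIN1 and BDKRB2, and they are given the most room below. Of these, FOSB was not called under voom with sample quality weights. KCNN4 was not called on log2 FPKM with 0.1 or 1 added, nor BDKRB2 with 1 added.

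**Figure D3:**
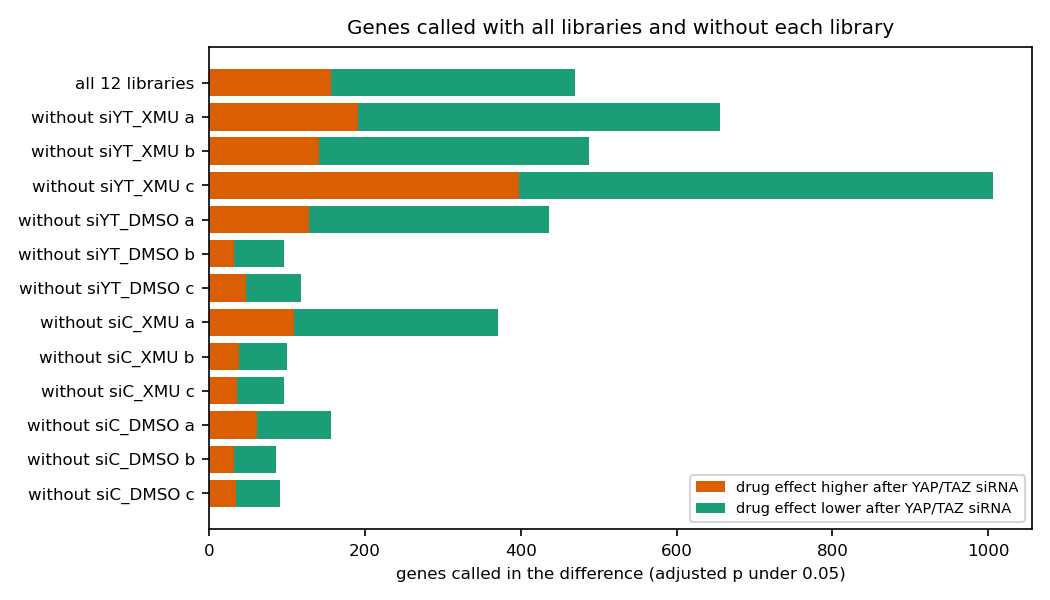
Number of genes called in the difference with all 12 libraries and without each library in turn, with calls higher (left part of a bar) and lower (right part) after YAP/TAZ siRNA. The bars run from 86 calls without siC_DMSO b to 1006 calls without siYT_XMU c.

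Replication-dependent histone genes held more calls than any other of the 33 lists examined, and 7 of their 8 calls were lost rises. Such genes encode the histones made in S phase, and most of their messages normally end in a stem-loop in place of a poly(A) tail, so that these poly(A) libraries measure the polyadenylated part. Of 25 tested members, 8 were lower in the difference and 0 higher, against 1.73% and 0.86% of all genes, with a median log2 difference of -0.95. The difference was above 0 for 11 of the 25, and without single libraries the median ran from -1.36 (without siYT_DMSO a) to -0.61 (without siC_XMU b). XMU-MP1 raised 14 members and lowered 0 in control siRNA, against 4% and 5.26% of all genes. After YAP/TAZ siRNA it raised 4 and lowered 0, against 4.19% and 7.92% of all genes. The counts of list members were the same under RLE and upper quartile scaling. Members lower in the difference included H2BC4, H2BC5, H2AC6, H2BC21, H2AC18 and H4C15, whose rise was lost, and H2BC12, whose rise was weakened. Without single libraries between 2 and 8 members were lower, with 2 without siYT_DMSO b, siC_XMU b, siC_DMSO b or siC_DMSO c, 3 without siYT_DMSO c and 4 without siC_XMU c or siC_DMSO a.

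H2BC4 (chr6:26113170-26123926, minus strand), an H2B gene of the large histone cluster, gave 147, 99 and 122 CPM in siYT_XMU, 106, 207 and 166 CPM in siYT_DMSO, 20.3, 23.6 and 21.2 CPM in siC_XMU, and 3.68, 3.26 and 3.00 CPM in siC_DMSO. The siC_XMU libraries lay above the siC_DMSO libraries and below all 6 siYT libraries, among which the drug and DMSO groups overlapped. XMU-MP1 raised it 6.54-fold in control siRNA, the level after YAP/TAZ siRNA was 0.767-fold of that in DMSO, and the log2 difference was -3.09 ± 0.33 (SE, edgeR adjusted p = 0.00389, and 0.00498 without siYT_XMU c). H2BC5 (chr6:26158008-26171349, plus strand) gave 115, 156 and 146 CPM in siYT_XMU, 40.7, 111 and 81.4 CPM in siYT_DMSO, 43.7, 71.5 and 38.3 CPM in siC_XMU, and 2.22, 3.91 and 2.30 CPM in siC_DMSO. Its siYT_XMU libraries lay above the siYT_DMSO libraries, of which siYT_DMSO a overlapped siC_XMU, with a log2 effect of 0.84 (edgeR adjusted p = 0.156), and the log2 difference was -3.35 ± 0.52 (SE, edgeR adjusted p = 0.0108, and 0.0157 without siYT_XMU c). Histone genes are near-identical copies of each other and how reads shared between them were counted is not given in the sources used here, so the share of each copy is uncertain.

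Further histone genes gave similar values. H2BC21 gave 172, 176 and 164 CPM in siYT_XMU, 89.7, 236 and 161 CPM in siYT_DMSO, 17.1, 29.4 and 18.9 CPM in siC_XMU, and 4.06, 1.63 and 2.53 CPM in siC_DMSO, with a log2 difference of -2.92 ± 0.52 (SE, edgeR adjusted p = 0.0202, and 0.0273 without siYT_XMU c). H2AC6 had a difference of -2.48 ± 0.44 (SE, edgeR adjusted p = 0.0199, and 0.0196 without siYT_XMU c), and H2AC19, whose near-identical partner H2AC18 was also called, of -2.73 ± 0.61 (SE, edgeR adjusted p = 0.0387, and 0.0486 without siYT_XMU c). In all 3 genes the siC_XMU libraries lay above the siC_DMSO libraries and below every siYT library. The call of H2BC21 was lost without siYT_DMSO b or c, siC_XMU b or siC_DMSO b or c (adjusted p up to 0.0642), that of H2AC6 without siYT_DMSO b, siC_XMU b or c or siC_DMSO b or c (adjusted p up to 0.0642) and that of H2AC19 without siYT_XMU a, siYT_DMSO b or c, siC_XMU b or c or siC_DMSO a, b or c (adjusted p up to 0.112).

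Other lost rises had different roles. IRF7, a transcription factor of the interferon response, gave 43, 46.3 and 26.1 CPM in siYT_XMU, 14.9, 26.5 and 24.4 CPM in siYT_DMSO, 51.2, 74 and 52.1 CPM in siC_XMU, and 6.62, 11.1 and 9.12 CPM in siC_DMSO. All siC_XMU libraries lay above all other libraries, and XMU-MP1 raised it 6.60-fold in control siRNA, with a log2 effect of 0.82 (edgeR adjusted p = 0.0982) after YAP/TAZ siRNA. The difference was -1.91 ± 0.42 (SE, edgeR adjusted p = 0.0366, and 0.04 without siYT_XMU c), without siYT_XMU c the gene was classed as weakened, and the call was lost without siYT_DMSO b or c, siC_XMU b or c or siC_DMSO a, b or c (adjusted p up to 0.107). IL17C, an epithelial cytokine of the IL-17 family, gave 60.0, 48.4 and 43.5 CPM in siYT_XMU, 24.2, 20.8 and 17.4 CPM in siYT_DMSO, 0.742, 0.505 and 0.440 CPM in siC_XMU, and 0, 0 and 0.0551 CPM in siC_DMSO. All 6 siYT libraries lay far above all siC libraries, and siYT_XMU lay above siYT_DMSO. Since siC_DMSO a and b had 0 counts, the fitted difference of -3.46 ± 0.78 (SE, edgeR adjusted p = 0.0404, and 0.0464 without siYT_XMU c) depends on the prior count and is no measured fold, and the call was lost without siYT_XMU b, siYT_DMSO a, b or c, siC_XMU a, b or c or siC_DMSO a or b (adjusted p up to 0.101).

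DNAJB9, an endoplasmic reticulum co-chaperone induced by unfolded proteins, gave 22.6, 26.6 and 19.1 CPM in siYT_XMU, 22.9, 30.7 and 33.3 CPM in siYT_DMSO, 23.4, 28.8 and 18.5 CPM in siC_XMU, and 9.29, 13.1 and 9.12 CPM in siC_DMSO. The siC_DMSO libraries lay below every other library, while the other groups overlapped each other, and the difference was -1.51 ± 0.35 (SE, edgeR adjusted p = 0.0437, and 0.0465 without siYT_XMU c), a call lost without siYT_XMU a, siYT_DMSO b or c, siC_XMU a, b or c or siC_DMSO a, b or c (adjusted p up to 0.129). GCLC, the catalytic subunit of the enzyme that starts glutathione synthesis, had a smaller difference of -0.86 ± 0.20 (SE, edgeR adjusted p = 0.0445, and 0.0171 without siYT_XMU c). GCLC was classed as reversed without siYT_XMU c. Its call was lost without siYT_XMU a or b, siYT_DMSO a, b or c, siC_XMU a, b or c or siC_DMSO a, b or c (adjusted p up to 0.133), under RLE and upper quartile scaling, and under both other filters on low counts.

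Lost falls included a keratin, a potassium channel and cyclin D1. KRT80 (chr12:52168996-52192014, minus strand), a type II keratin of differentiating epithelia, gave 280.2, 526 and 260.2 CPM in siYT_XMU, 479, 316 and 273 CPM in siYT_DMSO, 9.46, 9.24 and 11.5 CPM in siC_XMU, and 108, 138 and 146 CPM in siC_DMSO. The siC_XMU libraries lay below all others, with XMU-MP1 at 0.0770 times the DMSO level in control siRNA, and the siYT_XMU and siYT_DMSO libraries overlapped at a level above siC_DMSO. After YAP/TAZ siRNA the XMU-MP1 level was 0.999 times the DMSO level, and the log2 difference was 3.70 ± 0.41 (SE, edgeR adjusted p = 0.00389, and 0.00336 without siYT_XMU c). KCNN4, a calcium-activated potassium channel, gave 61.3, 125 and 46.6 CPM in siYT_XMU, 132, 117 and 125 CPM in siYT_DMSO, 12.7, 11.4 and 7.37 CPM in siC_XMU, and 119.9, 108 and 103 CPM in siC_DMSO. Here siYT_DMSO and siC_DMSO overlapped, the siC_XMU libraries were the lowest, and the log2 effect was -0.68 (edgeR adjusted p = 0.185) after YAP/TAZ siRNA and -3.39 (edgeR adjusted p = 0.000303) in control siRNA. The difference for KCNN4 was 2.71 ± 0.44 (SE, edgeR adjusted p = 0.0137, and 0.0063 without siYT_XMU c).

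CCND1, cyclin D1, the partner of CDK4 and CDK6 in G1, gave 98.9, 102 and 167 CPM in siYT_XMU, 94.9, 63.1 and 124 CPM in siYT_DMSO, 55.1, 37.2 and 52.3 CPM in siC_XMU, and 176, 182 and 232 CPM in siC_DMSO. XMU-MP1 lowered it in control siRNA, where no library overlapped, by a log2 effect of -2.03 (edgeR adjusted p = 0.00181). After YAP/TAZ siRNA the groups overlapped, with an effect of 0.38 (edgeR adjusted p = 0.413) from a DMSO level below that of siC_DMSO. The difference for CCND1 was 2.41 ± 0.39 (SE, edgeR adjusted p = 0.0137, and 0.014 without siYT_XMU c). MCM3, a subunit of the replicative helicase, gave 21.5, 17.7 and 14.7 CPM in siYT_XMU, 23, 12.9 and 18.1 CPM in siYT_DMSO, 108, 89 and 97.2 CPM in siC_XMU, and 253, 234 and 232 CPM in siC_DMSO. It fell in control siRNA, and stood at still lower levels in all 6 siYT libraries with no separation by drug. The difference was 1.30 ± 0.29 (SE, edgeR adjusted p = 0.0389, and 0.0237 without siYT_XMU c), a call lost without siYT_XMU a or b, siYT_DMSO b or c, siC_XMU a, b or c or siC_DMSO a, b or c (adjusted p up to 0.119).

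Cytokine and adhesion genes were also among the lost falls. In a list of NF-kB targets and inflammatory cytokines, 5 of 28 tested members were higher in the difference and 0 lower, against 0.86% and 1.73% of all genes. The list's median difference was 1.11, and 1.05 with members that had a group at 0 set at the floor of 3 counts per library. XMU-MP1 raised 1 member and lowered 12 in control siRNA, against 4% and 5.26% of all genes. After YAP/TAZ siRNA it raised 3 and lowered 3, against 4.19% and 7.92% of all genes. Under RLE and upper quartile scaling 6 members were higher and 0 lower. Without single libraries the number higher ran from 1 to 6, with 1 without siC_XMU b, siC_DMSO b or siC_DMSO c, 2 without siYT_DMSO b, siC_XMU a, siC_XMU c or siC_DMSO a, and 3 without siYT_DMSO c. ICAM1, the adhesion molecule bound by leukocyte integrins, gave 23.2, 14.9 and 49.5 CPM in siYT_XMU, 9.97, 6.52 and 18.4 CPM in siYT_DMSO, 4.03, 5.26 and 5.33 CPM in siC_XMU, and 11.2, 17.5 and 15.4 CPM in siC_DMSO. The siC_XMU libraries were the lowest, the siYT_XMU and siYT_DMSO libraries overlapped, and the difference was 2.91 ± 0.64 (SE, edgeR adjusted p = 0.0379, and 0.0404 without siYT_XMU c). The log2 effect on ICAM1 was 1.31 (edgeR adjusted p = 0.0851) after YAP/TAZ siRNA and -1.60 (edgeR adjusted p = 0.0486) in control siRNA. CXCL1, a neutrophil chemokine, gave 30.7, 31.2 and 28.8 CPM in siYT_XMU, 28.4, 12.5 and 35.6 CPM in siYT_DMSO, 18.4, 23.5 and 28.2 CPM in siC_XMU, and 96.2, 129 and 105 CPM in siC_DMSO. Its siC_DMSO libraries were the highest, and the difference was 2.48 ± 0.44 (SE, edgeR adjusted p = 0.0199, and 0.0207 without siYT_XMU c). The ICAM1 call was lost without siYT_DMSO a or b, siC_XMU a, b or c or siC_DMSO a, b or c (adjusted p up to 0.0981) and the CXCL1 call without siC_XMU b or siC_DMSO b or c (adjusted p up to 0.0622).

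Further lost falls were seen for receptors and a cadherin. ADGRF1, an adhesion G protein-coupled receptor, had an effect of -0.56 (edgeR adjusted p = 0.461) after YAP/TAZ siRNA and -4.08 (edgeR adjusted p = 0.000924) in control siRNA, with a difference of 3.52 ± 0.65 (SE, edgeR adjusted p = 0.0221, and 0.0123 without siYT_XMU c). CD14, the co-receptor for lipopolysaccharide and a member of the leukocyte marker list, gave 21.6, 51.7 and 28 CPM in siYT_XMU, 23.3, 27.1 and 41.5 CPM in siYT_DMSO, 9.02, 14.5 and 6.89 CPM in siC_XMU, and 36.5, 52.6 and 39.5 CPM in siC_DMSO, with a difference of 2.23 ± 0.52 (SE, edgeR adjusted p = 0.0459, and 0.0415 without siYT_XMU c). The summed level of that marker list was 128 to 239 CPM in siYT_XMU, 125 to 224 in siYT_DMSO, 164 to 215 in siC_XMU and 186 to 269.6 in siC_DMSO, and PTPRC was at 0 in at least 1 library of every group. FAT2, an atypical cadherin of epidermal cells, had a difference of 1.9 ± 0.38 (SE, edgeR adjusted p = 0.0276, and 0.0196 without siYT_XMU c) and was classed as weakened without siYT_XMU c. The calls were lost without siYT_DMSO b or c, siC_XMU b or c or siC_DMSO b or c (adjusted p up to 0.0692) for ADGRF1, without siYT_XMU b, siYT_DMSO a, b or c, siC_XMU a, b or c or siC_DMSO a, b or c (adjusted p up to 0.13) for CD14 and without siYT_DMSO b or c, siC_XMU a, b or c or siC_DMSO a, b or c (adjusted p up to 0.0836) for FAT2.

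PGLYRP4, a peptidoglycan recognition protein, gave 32.9, 45.9 and 33.8 CPM in siYT_XMU, 34.5, 33.1 and 31.5 CPM in siYT_DMSO, 0, 0 and 0 CPM in siC_XMU, and 0.0613, 0.688 and 0.165 CPM in siC_DMSO. It had 0 counts in all siC_XMU libraries and under 1 CPM in siC_DMSO, so that its fitted difference of 7.19 ± 1.55 (SE, edgeR adjusted p = 0.0428, and 0.0486 without siYT_XMU c) depends on the prior count and is no measured fold. All 6 siYT libraries lay between 31.5 and 45.9 CPM, and the drug and DMSO groups overlapped. CALD1, the actin-binding protein caldesmon, was the member called in a list of SRF and actin genes, with a difference of 0.89 ± 0.21 (SE, edgeR adjusted p = 0.0497, and 0.0419 without siYT_XMU c). Its log2 effect was 0.36 (edgeR adjusted p = 0.144) after YAP/TAZ siRNA and -0.52 (edgeR adjusted p = 0.0486) in control siRNA. All siYT_XMU libraries lay above the siYT_DMSO libraries for CALD1, although that rise was not called. The calls were lost without siYT_XMU a or b, siYT_DMSO a, b or c, siC_XMU a, b or c or siC_DMSO c (adjusted p up to 0.11) for PGLYRP4 and without siYT_XMU b, siYT_DMSO a, b or c, siC_XMU a, b or c or siC_DMSO a, b or c (adjusted p up to 0.144) for CALD1.

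Several immediate early genes, which encode fast-acting regulators switched on soon after a stimulus, gained a rise. Of 29 tested members of a list of immediate early and AP-1 genes, 6 were higher in the difference and 1 lower, against 0.86% and 1.73% of all genes. XMU-MP1 raised 10 and lowered 3 after YAP/TAZ siRNA, against 4.19% and 7.92% of all genes. In control siRNA it raised 2 and lowered 1, against 4% and 5.26% of all genes. The members higher in the difference were FOSB, NR4A1, GEM, IER3 and JUNB, whose rise was gained, and FOSL1, whose fall was lost, while NAB2 was lower. The list's median difference was 0.58, and 0.25 with members that had a group at 0 set at the floor in the difference. The list's median effect with that floor was 0.39 after YAP/TAZ siRNA and 0.64 in control siRNA, so the arm medians stand in the other order from the median of the differences. The count higher was 6 under RLE and upper quartile scaling as well. Without single libraries it ran from 2 to 7, with 2 without siYT_DMSO b, siC_XMU b or siC_DMSO c, 3 without siYT_DMSO c, siC_XMU c or siC_DMSO b, and 4 without siYT_DMSO a.

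FOSB (chr19:45467996-45475179, plus strand), a Fos family subunit of AP-1, gave 21.8, 98.9 and 79.6 CPM in siYT_XMU, 2.00, 3.07 and 2.45 CPM in siYT_DMSO, 1.96, 2.07 and 2.44 CPM in siC_XMU, and 1.35, 1.45 and 0.978 CPM in siC_DMSO. The lowest siYT_XMU library, at 21.8 CPM, lay above the highest of all other libraries, at 3.07 CPM. XMU-MP1 raised it 26.4-fold after YAP/TAZ siRNA, the effect in control siRNA was 0.78 (edgeR adjusted p = 0.316) on the log2 scale, and the log2 difference was 3.95 ± 0.63 (SE, edgeR adjusted p = 0.0124, and 0.0166 without siYT_XMU c). NR4A1 (chr12:52022832-52059507, plus strand), an orphan nuclear receptor, gave 34.1, 200.2 and 25.1 CPM in siYT_XMU, 1.08, 0.309 and 0.960 CPM in siYT_DMSO, 3.07, 3.05 and 2.28 CPM in siC_XMU, and 0.934, 0.663 and 2.11 CPM in siC_DMSO. All siYT_XMU libraries lay above all others, with siYT_XMU b far above a and c, and the difference was 5.64 ± 1.09 (SE, edgeR adjusted p = 0.0255, and 0.014 without siYT_XMU c). IER3, an early response gene linked to ERK and NF-kB signalling, gave 79.2, 56.5 and 57.4 CPM in siYT_XMU, 23.7, 18 and 24.7 CPM in siYT_DMSO, 6.01, 5.33 and 6.77 CPM in siC_XMU, and 7.61, 8.78 and 9.52 CPM in siC_DMSO. Its levels were ordered siYT_XMU, siYT_DMSO, siC_DMSO and siC_XMU with no overlap, and the difference was 2.06 ± 0.30 (SE, edgeR adjusted p = 0.00793, and 0.00709 without siYT_XMU c). GEM, a small GTPase of the RGK family, gave 36.4, 39.8 and 74.8 CPM in siYT_XMU, 0.959, 0.773 and 1.16 CPM in siYT_DMSO, 0.321, 0.139 and 0.182 CPM in siC_XMU, and 0, 0.102 and 0.207 CPM in siC_DMSO. With 0 counts in siC_DMSO a and low counts in all siC libraries, its fitted difference of 4.69 ± 0.97 (SE, edgeR adjusted p = 0.0293, and 0.0404 without siYT_XMU c) is no measured fold. Significance was lost without siYT_DMSO b or c, siC_XMU b or c or siC_DMSO b or c (adjusted p up to 0.0794) for NR4A1 and without siYT_DMSO a, b or c, siC_XMU b or c or siC_DMSO b or c (adjusted p up to 0.14) for GEM. Under voom with sample quality weights neither NR4A1 nor GEM was called. On log2 FPKM with 0.1 or 1 added NR4A1 was not called.

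The FOSB promoter is shown because it holds the cAMP response element half-site TGACGT, a motif chosen after the values were seen, in capitals below (GRCh38.p14, chr19:45467746-45468045, plus strand, from 250 bases before to 50 after the RefSeq start).
FOSB: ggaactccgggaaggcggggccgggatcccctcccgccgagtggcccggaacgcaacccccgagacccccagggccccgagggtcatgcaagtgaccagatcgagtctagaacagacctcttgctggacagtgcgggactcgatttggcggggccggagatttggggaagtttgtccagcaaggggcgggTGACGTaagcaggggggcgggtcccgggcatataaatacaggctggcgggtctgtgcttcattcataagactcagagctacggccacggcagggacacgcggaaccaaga
On either strand TGACGT is held by 10.4% of 12513 promoters of tested genes, by 8.57% of 35 promoters of gained rises, 14.1% of 64 lost rises, 6.06% of 66 lost falls, 7.14% of 168 gained falls and 12.1% of 33 reversed responses. TGANTCA is held by 5.78% of all and 11.4% of gained rises, which is 4 of 35 promoters, and by 9.09% of 33 reversed responses, 6.25% of lost rises, 4.76% of gained falls and 4.55% of lost falls. GGAATG is held by 11.5% of all, 8.57% of gained rises, 13.1% of 168 gained falls, 9.38% of lost rises, 7.58% of 66 lost falls and 12.1% of 33 reversed responses. These shares are descriptions of the letters in the windows.

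Further gained rises named by rule had other roles. PFKFB3, which makes the fructose bisphosphate that activates glycolysis, gave 98.5, 201 and 145 CPM in siYT_XMU, 25.1, 16.5 and 17.3 CPM in siYT_DMSO, 40.3, 50.0 and 56.4 CPM in siC_XMU, and 31.9, 42.5 and 51.7 CPM in siC_DMSO. The knockdown groups lay on either side of the control groups, with siYT_XMU above and siYT_DMSO below all siC libraries. XMU-MP1 raised it 7.56-fold after YAP/TAZ siRNA, and the difference was 2.70 ± 0.39 (SE, edgeR adjusted p = 0.00838, and 0.0123 without siYT_XMU c). PYGM, the muscle form of glycogen phosphorylase, gave 9.83, 43.3 and 20.7 CPM in siYT_XMU, 0, 0.0773 and 0.182 CPM in siYT_DMSO, 0.802, 0.784 and 0.713 CPM in siC_XMU, and 0.123, 0.510 and 0.771 CPM in siC_DMSO. Its siYT_DMSO libraries stood near the floor of counting, and the fitted difference was 7.21 ± 1.14 (SE, edgeR adjusted p = 0.0117, and 0.014 without siYT_XMU c). LPAR6, a receptor for lysophosphatidic acid, gave 41.8, 11.3 and 69.8 CPM in siYT_XMU, 4.42, 5.10 and 4.68 CPM in siYT_DMSO, 2.22, 2.25 and 1.81 CPM in siC_XMU, and 3.52, 3.43 and 2.84 CPM in siC_DMSO. Each siYT_XMU library lay above all others, and the difference was 3.74 ± 0.68 (SE, edgeR adjusted p = 0.0209, and 0.0196 without siYT_XMU c), a call lost without siYT_DMSO b or c, siC_XMU b or c or siC_DMSO b or c (adjusted p up to 0.0651). TNFAIP2, a gene induced by tumour necrosis factor, had a difference of 1.99 ± 0.40 (SE, edgeR adjusted p = 0.0289, and 0.0354 without siYT_XMU c), a call lost without siYT_DMSO b or c, siC_XMU a, b or c or siC_DMSO a, b or c (adjusted p up to 0.0885).

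Of 33 tested genes of ribosome biogenesis, 3 were higher in the difference and 0 lower, against 0.86% and 1.73% of all genes, and the list's median difference was 0.74. XMU-MP1 raised 4 and lowered 3 after YAP/TAZ siRNA, against 4.19% and 7.92% of all genes. In control siRNA it raised 0 and lowered 9, against 4% and 5.26% of all genes. Under RLE and upper quartile scaling 4 members were higher in the difference, and without siYT_XMU c 6 were higher and 1 lower. NCL, nucleolin, gave 664, 715 and 722 CPM in siYT_XMU, 398, 347 and 388 CPM in siYT_DMSO, 1099, 1061 and 1026 CPM in siC_XMU, and 1212, 1040.2 and 1099 CPM in siC_DMSO. All siYT_XMU libraries lay above the siYT_DMSO libraries and below the siC libraries, and the difference was 0.96 ± 0.20 (SE, edgeR adjusted p = 0.0293, and 0.0156 without siYT_XMU c). NOLC1, a nucleolar phosphoprotein, had a difference of 1.05 ± 0.21 (SE, edgeR adjusted p = 0.0289, and 0.0215 without siYT_XMU c), and DKC1, the pseudouridine synthase of box H/ACA particles, of 1.49 ± 0.25 (SE, edgeR adjusted p = 0.0169, and 0.0123 without siYT_XMU c) as a lost fall. For DKC1 the log2 effect was 0.50 (edgeR adjusted p = 0.0976) after YAP/TAZ siRNA, with all siYT_XMU above all siYT_DMSO libraries, and -0.99 (edgeR adjusted p = 0.00643) in control siRNA. No member was called without siC_XMU b or siC_XMU c, and 1 was called without siYT_DMSO b, siYT_DMSO c, siC_DMSO a, siC_DMSO b or siC_DMSO c. On log2 FPKM with 0.1 or 1 added NCL, NOLC1 and DKC1 were not called, and NCL was not called without a filter on low counts.

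Gained falls made up the most numerous class, with 194 genes. NAB2 (chr12:57089114-57095476, plus strand), a co-repressor of EGR transcription factors, gave 27.5, 17.4 and 11.2 CPM in siYT_XMU, 102, 131 and 110.3 CPM in siYT_DMSO, 50.6, 28.3 and 26.1 CPM in siC_XMU, and 26.4, 20.4 and 22.4 CPM in siC_DMSO. The siYT_DMSO libraries lay above all others, the siYT_XMU libraries overlapped the control arm, and XMU-MP1 brought the level to 0.165 times that of DMSO after YAP/TAZ siRNA. The log2 difference was -3.20 ± 0.45 (SE, edgeR adjusted p = 0.00789, and 0.0081 without siYT_XMU c). PLPP3, a cell surface phosphatase that breaks down lysophosphatidic acid, gave 2.17, 3.81 and 2.69 CPM in siYT_XMU, 21.1, 29.3 and 39.4 CPM in siYT_DMSO, 4.95, 11.9 and 10.4 CPM in siC_XMU, and 6.66, 10.9 and 7.63 CPM in siC_DMSO. Its siYT_DMSO libraries were the highest and its siYT_XMU libraries the lowest, and the difference was -3.47 ± 0.54 (SE, edgeR adjusted p = 0.0116, and 0.0156 without siYT_XMU c). CEBPB, a bZIP transcription factor, gave 78.3, 98.2 and 48.7 CPM in siYT_XMU, 399.7, 306 and 385 CPM in siYT_DMSO, 80.5, 66.8 and 66 CPM in siC_XMU, and 103, 87.7 and 118 CPM in siC_DMSO. The siYT_DMSO libraries lay above all others, and the difference was -1.74 ± 0.33 (SE, edgeR adjusted p = 0.0239, and 0.0129 without siYT_XMU c). CEBPB was classed as strengthened without siYT_XMU c, where its fall in control siRNA was also called, and its call was lost without siYT_DMSO c, siC_XMU b or c or siC_DMSO a, b or c (adjusted p up to 0.0694).

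MAPK7, the kinase ERK5, gave 10.9, 4.58 and 3.31 CPM in siYT_XMU, 25, 30.1 and 36.4 CPM in siYT_DMSO, 19.7, 29.4 and 29.1 CPM in siC_XMU, and 11.1, 16.2 and 16.4 CPM in siC_DMSO, with a difference of -3.09 ± 0.54 (SE, edgeR adjusted p = 0.0183, and 0.0156 without siYT_XMU c). DLX3, a homeobox factor of epidermal differentiation, gave 0.528, 1.76 and 0 CPM in siYT_XMU, 17.7, 18.8 and 17.2 CPM in siYT_DMSO, 0.682, 1.05 and 0.349 CPM in siC_XMU, and 1.04, 0.625 and 0.565 CPM in siC_DMSO. The siYT_DMSO libraries lay above all others, which overlapped each other, and the difference was -4.21 ± 0.98 (SE, edgeR adjusted p = 0.0444, and 0.0238 without siYT_XMU c). LURAP1L had a difference of -3.12 ± 0.59 (SE, edgeR adjusted p = 0.0242, and 0.0279 without siYT_XMU c). KLF3, a Krüppel-like repressor, gave 28.2, 19 and 25.3 CPM in siYT_XMU, 92.6, 102 and 90.6 CPM in siYT_DMSO, 36.3, 43.9 and 41.5 CPM in siC_XMU, and 66.3, 59.3 and 42.9 CPM in siC_DMSO, with siYT_DMSO highest and siYT_XMU lowest, and a difference of -1.51 ± 0.28 (SE, edgeR adjusted p = 0.0221, and 0.0204 without siYT_XMU c). The calls were lost without siYT_DMSO b or c, siC_XMU b or c or siC_DMSO b or c (adjusted p up to 0.0555) for MAPK7, without siYT_XMU a, siYT_DMSO a, b or c, siC_XMU a, b or c or siC_DMSO a, b or c (adjusted p up to 0.127) for DLX3, without siYT_DMSO b, siC_XMU b or c or siC_DMSO a, b or c (adjusted p up to 0.0758) for LURAP1L and without siYT_DMSO b or c, siC_XMU b or c or siC_DMSO b or c (adjusted p up to 0.0692) for KLF3.

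Further transcriptional regulators gained a fall. CEBPG, a bZIP partner of ATF4, had a difference of -1.5 ± 0.33 (SE, edgeR adjusted p = 0.0359, and 0.0296 without siYT_XMU c). GATA3, a luminal mammary factor, had -1.55 ± 0.35 (SE, edgeR adjusted p = 0.0395, and 0.0296 without siYT_XMU c), with 8.66, 9.11 and 5.18 CPM in siYT_XMU, 19.2, 28.5 and 24.1 CPM in siYT_DMSO, 16.2, 21.7 and 17.7 CPM in siC_XMU, and 19.6, 21 and 17.8 CPM in siC_DMSO. ARNT, the dimer partner of the aryl hydrocarbon receptor and of hypoxia-inducible factors, had -1.45 ± 0.28 (SE, edgeR adjusted p = 0.0247, and 0.0246 without siYT_XMU c) and was classed as reversed without siYT_XMU c. The calls were lost without siYT_DMSO a, b or c, siC_XMU a, b or c or siC_DMSO b or c (adjusted p up to 0.103) for CEBPG, without siYT_DMSO b or c, siC_XMU b or c or siC_DMSO a, b or c (adjusted p up to 0.124) for GATA3 and without siYT_DMSO b or c, siC_XMU b or c or siC_DMSO a, b or c (adjusted p up to 0.0762) for ARNT.

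Reversed responses were led by DUSP2 (chr2:96143166-96145468, minus strand), a nuclear phosphatase of ERK kinases. DUSP2 gave 84.2, 83.6 and 36.9 CPM in siYT_XMU, 3.63, 1.82 and 2.50 CPM in siYT_DMSO, 0.461, 0.331 and 0.334 CPM in siC_XMU, and 1.85, 1.34 and 1.39 CPM in siC_DMSO. XMU-MP1 raised it 26-fold after YAP/TAZ siRNA and brought it to 0.246 times the DMSO level in control siRNA, with no overlap in either arm. The log2 difference was 6.73 ± 0.53 (SE, edgeR adjusted p = 0.000578, and 0.000129 without siYT_XMU c), the smallest adjusted p among the genes named here. CXCL8 (chr4:73740569-73743716, plus strand), interleukin 8, gave 44.9, 68 and 92.6 CPM in siYT_XMU, 9.72, 2.17 and 12.9 CPM in siYT_DMSO, 3.07, 3.62 and 3.63 CPM in siC_XMU, and 15.6, 26.4 and 10.9 CPM in siC_DMSO. It rose 8.27-fold with XMU-MP1 after YAP/TAZ siRNA and fell to 0.195 times the DMSO level in control siRNA, again with no overlap within an arm. The log2 difference was 5.40 ± 0.78 (SE, edgeR adjusted p = 0.00795, and 0.0126 without siYT_XMU c). Its promoter (GRCh38.p14, chr4:73740319-73740618, plus strand, the same window) is shown because it holds the AP-1 motif TGANTCA once, in capitals.
CXCL8: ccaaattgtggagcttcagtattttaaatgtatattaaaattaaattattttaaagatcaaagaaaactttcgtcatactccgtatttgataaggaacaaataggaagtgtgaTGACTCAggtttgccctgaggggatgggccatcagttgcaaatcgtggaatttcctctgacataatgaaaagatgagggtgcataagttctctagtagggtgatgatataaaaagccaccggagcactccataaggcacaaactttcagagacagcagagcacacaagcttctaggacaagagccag
 Of 24 tested genes of ERK feedback and ETV factors, 4 were higher in the difference and 1 lower, against 0.86% and 1.73% of all genes, namely DUSP2, IER3, CCND1 and ETV5 higher and DUSP6 lower, with a median of -0.09 that turned to 0.04 under upper quartile scaling and 0.05 without siC_XMU b. None was lower without siYT_DMSO c, siC_XMU b or c, or siC_DMSO a, b or c.

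GPRIN1 and TRIM62 had a fall after YAP/TAZ siRNA and a rise in control siRNA. GPRIN1, a membrane protein that binds activated G protein subunits, gave 45.6, 53.4 and 42.5 CPM in siYT_XMU, 74.9, 92 and 94.3 CPM in siYT_DMSO, 18.2, 23.6 and 23.7 CPM in siC_XMU, and 5.39, 9.47 and 8.28 CPM in siC_DMSO. XMU-MP1 lowered it after YAP/TAZ siRNA, where it stayed above all siC libraries, and raised it in control siRNA, with a difference of -2.38 ± 0.31 (SE, edgeR adjusted p = 0.00542, and 0.00837 without siYT_XMU c). TRIM62, a ubiquitin ligase, gave 33.2, 22.7 and 24.2 CPM in siYT_XMU, 38.6, 49.6 and 47.5 CPM in siYT_DMSO, 54, 70.8 and 48.6 CPM in siC_XMU, and 16.7, 18.3 and 15.5 CPM in siC_DMSO, with a difference of -2.54 ± 0.29 (SE, edgeR adjusted p = 0.00389, and 0.00542 without siYT_XMU c), and was classed as a lost rise without siYT_XMU c. VPS9D1-AS1, a long non-coding RNA antisense to VPS9D1, gave 12.9, 13.1 and 17 CPM in siYT_XMU, 5.71, 4.52 and 5.76 CPM in siYT_DMSO, 9.88, 7.67 and 8.95 CPM in siC_XMU, and 24.7, 16.4 and 23.4 CPM in siC_DMSO, with a difference of 2.70 ± 0.34 (SE, edgeR adjusted p = 0.00539, and 0.00542 without siYT_XMU c). VPS9D1 itself had a difference of -0.04 ± 0.59 (SE, edgeR adjusted p = 1). The kit marks strand, but whether the counting used it is not given in the sources used here, so reads of the pair may not be told apart.

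**Figure D4:**
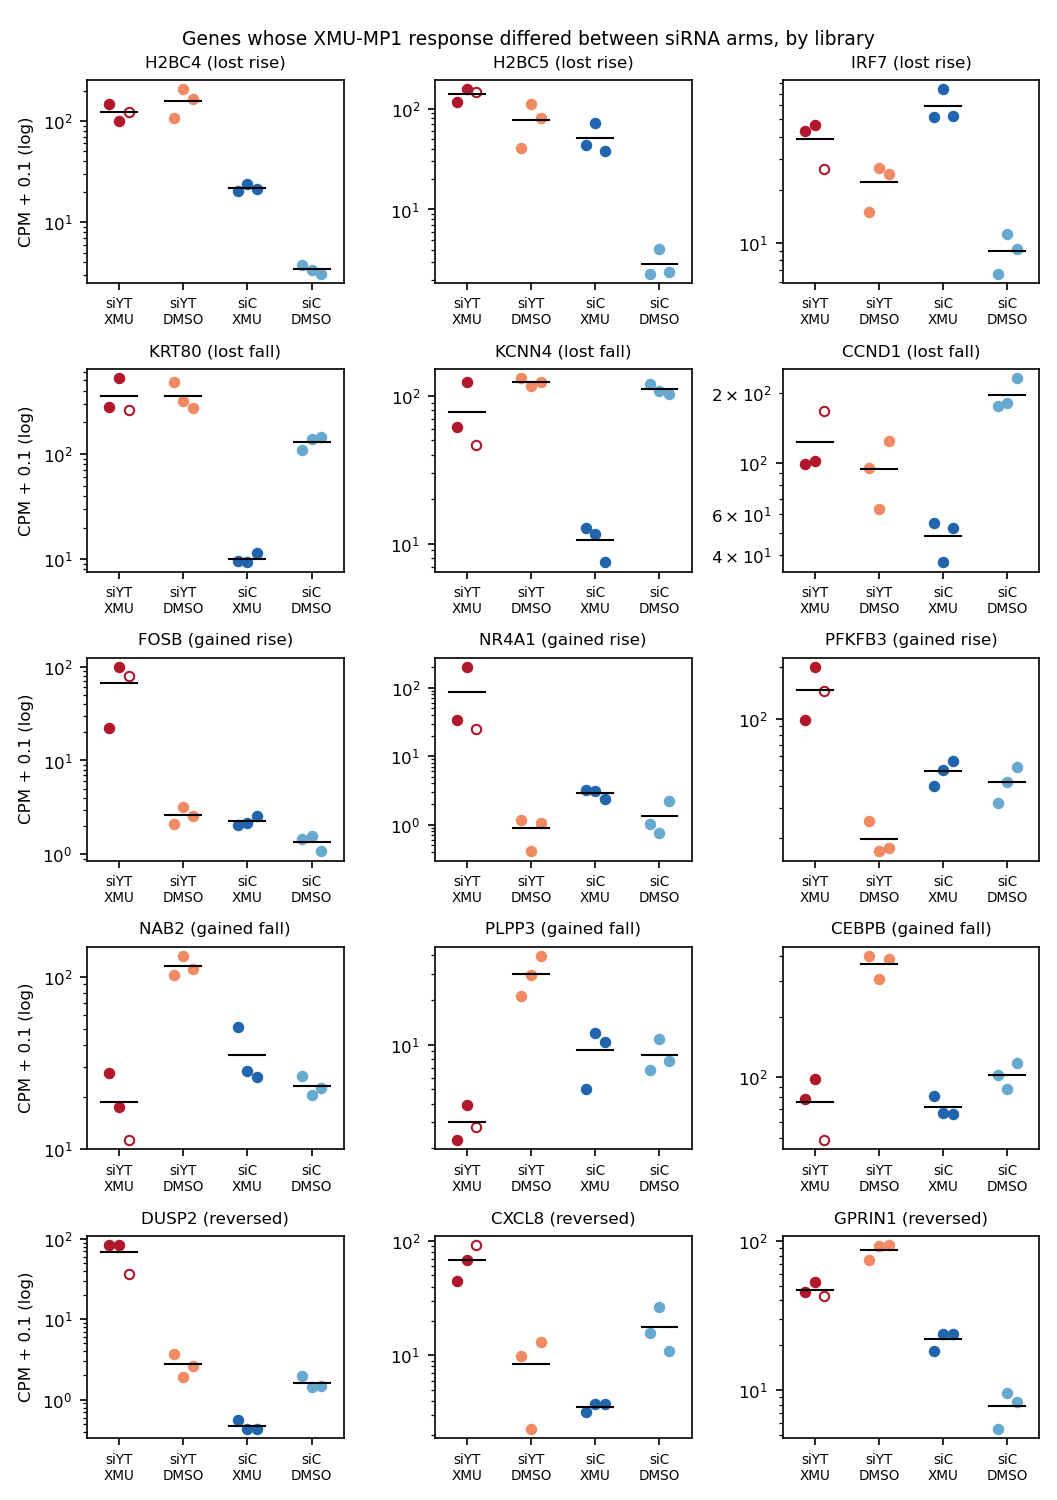
CPM plus 0.1 on a log axis in the 12 libraries for 15 genes of 5 classes, with siYT groups left and siC groups right. Points are libraries, the open point is siYT_XMU c and bars are group means. The siC_XMU libraries stand above siC_DMSO for lost rises and below them for lost falls, while for FOSB, NR4A1 and DUSP2 the siYT_XMU libraries stand above all others.

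In the weakened class the direction was kept and the size was not. BDKRB2, the bradykinin receptor, gave 6.87, 7.64 and 7.25 CPM in siYT_XMU, 25.1, 22 and 26.8 CPM in siYT_DMSO, 0.541, 0.331 and 0.319 CPM in siC_XMU, and 12.7, 12.7 and 12 CPM in siC_DMSO. XMU-MP1 lowered it in both arms, to 0.295 times the DMSO level after YAP/TAZ siRNA and to 0.0318 times in control siRNA, with a difference of 3.21 ± 0.35 (SE, edgeR adjusted p = 0.00389, and 0.00336 without siYT_XMU c). CYP1B1, a cytochrome P450 induced through the aryl hydrocarbon receptor, had effects of -1.80 (edgeR adjusted p = 0.00797) after YAP/TAZ siRNA and -4.13 (edgeR adjusted p = 0.000259) in control siRNA, with a difference of 2.33 ± 0.51 (SE, edgeR adjusted p = 0.0359, and 0.0445 without siYT_XMU c). JADE2, a PHD finger protein of histone acetyltransferase complexes, had a difference of 2.31 ± 0.43 (SE, edgeR adjusted p = 0.0237, and 0.0273 without siYT_XMU c). Significance ended without siYT_XMU b, siYT_DMSO a or b, siC_XMU a, b or c or siC_DMSO a, b or c (adjusted p up to 0.104) for CYP1B1 and without siYT_DMSO b or c, siC_XMU b or siC_DMSO b or c (adjusted p up to 0.0737) for JADE2.

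In the strengthened class the effect was larger after YAP/TAZ siRNA. VGF, a secreted neuropeptide precursor, gave 45.8, 64.4 and 36.9 CPM in siYT_XMU, 0.500, 0.986 and 1.09 CPM in siYT_DMSO, 8.32, 5.72 and 3.70 CPM in siC_XMU, and 0.459, 1.12 and 1.76 CPM in siC_DMSO, with a difference of 3.40 ± 0.67 (SE, edgeR adjusted p = 0.0265, and 0.0237 without siYT_XMU c). THBD, thrombomodulin, gave 0.792, 1.24 and 0.622 CPM in siYT_XMU, 33.7, 20.4 and 56.9 CPM in siYT_DMSO, 1.22, 1.29 and 2.46 CPM in siC_XMU, and 11.9, 7.76 and 7.85 CPM in siC_DMSO, with a difference of -2.82 ± 0.61 (SE, edgeR adjusted p = 0.0341, and 0.041 without siYT_XMU c). PRDM1, the repressor BLIMP1, which acts in epidermal differentiation, gave 3.20, 3.67 and 5.39 CPM in siYT_XMU, 60.3, 35.1 and 63.1 CPM in siYT_DMSO, 1.98, 2.20 and 2.76 CPM in siC_XMU, and 5.21, 6.69 and 3.72 CPM in siC_DMSO, with a difference of -2.57 ± 0.44 (SE, edgeR adjusted p = 0.0182, and 0.0123 without siYT_XMU c). For THBD and PRDM1 the siYT_DMSO libraries were the highest, and siYT_XMU overlapped siC_XMU for THBD and lay above it for PRDM1. Calls ended without siYT_DMSO b or c, siC_XMU b or c or siC_DMSO b or c (adjusted p up to 0.0801) for VGF, without siYT_XMU a, siYT_DMSO a or c, siC_XMU b or c or siC_DMSO a, b or c (adjusted p up to 0.102) for THBD and without siYT_DMSO c, siC_XMU c or siC_DMSO c (adjusted p up to 0.0566) for PRDM1.

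The other lists held few or no calls in the difference. None of 29 tested YAP and TAZ target genes was called with all libraries in edgeR with TMM factors. After YAP/TAZ siRNA XMU-MP1 raised 4 and lowered 5 of them, against 4.19% and 7.92% of all genes. In control siRNA it raised 2 and lowered 2 of them, against 4% and 5.26%. The targets' median difference was 0.51 against 0.067 over all genes, 20 of the 29 lay above 0, and without siYT_XMU c 3 were lower and 0 higher in the difference. Without siYT_XMU a, 2 were higher and 0 lower. Of 38 tested Hippo pathway components 0 were higher and 1 was lower, and without siYT_XMU c 0 were higher and 4 lower. Among 36 tested genes of the ATF4 and unfolded protein response, 0 were higher and 3 lower, against 0.86% and 1.73% of all genes, and none was called without siYT_DMSO c, siC_XMU b or c, or siC_DMSO b or c. Of 36 tested G1/S and replication genes 1 was higher, with 3 higher without siYT_XMU c, and 1 lower and none higher without siYT_XMU a, where the median difference turned to -0.24 from 0.30. Of 33 G2/M and mitosis genes none was called, with 2 higher without siYT_DMSO a, and the median difference of 0.40 turned to -0.22 without siYT_XMU a. Of 47 tested epidermal differentiation genes 0 were higher and 1 was lower. Without siYT_XMU a, 2 of them were higher and 1 lower, and none was called without siYT_DMSO c, siC_XMU c or siC_DMSO c. The lists of Wnt pathway genes (22 tested), hypoxia and glycolysis genes (29) and SRF and actin genes (29) had 1 member higher each, with none lower. The type I interferon (26), NRF2 target (25), KLF and MYC family (22) and luminal marker (13) lists had 1 member lower each, with none higher, although under RLE and upper quartile scaling the NRF2 list had 1 higher and none lower, and the list of aryl hydrocarbon receptor targets (8) had 1 in each direction. No member was called among the tested cholesterol and fatty acid synthesis (30), p53 target (30), TGF-beta and BMP (29), autophagy and lysosome (26), mesenchymal transition (25), heat shock (19), Notch (16), BCL2 family (16) and EGFR family (15) genes with all libraries. Without siYT_XMU b, 3 autophagy and lysosome genes were lower, and without siYT_XMU c the p53 target, heat shock and Notch lists had 1 member higher and the TGF-beta and BMP, Notch, BCL2 and EGFR lists 1 lower. The cholesterol list had 1 member higher under upper quartile scaling and without siYT_XMU a or siC_XMU a. The heat shock list had 1 member higher under RLE and upper quartile scaling. The KLF and MYC list had 3 members lower without siYT_XMU c, and 1 higher and 1 lower without siYT_XMU a. None of that list was called without siYT_DMSO b or c, siC_XMU b or c or siC_DMSO b or c. A gene that was not called is not shown to respond alike in both arms.

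**Figure D5:**
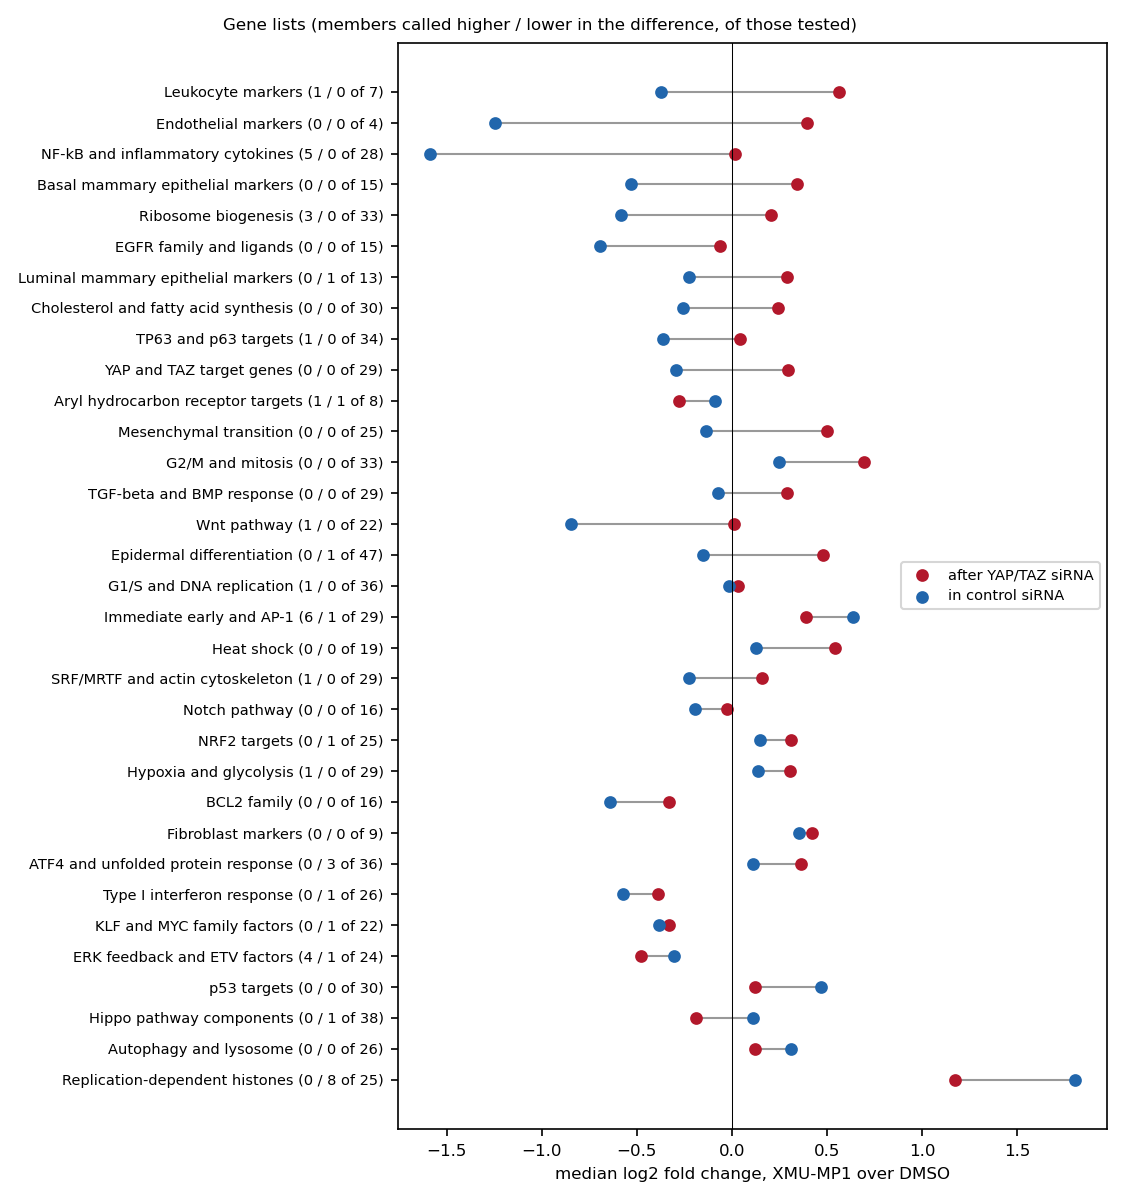
Median log2 fold change of XMU-MP1 over DMSO for 33 gene lists, after YAP/TAZ siRNA and in control siRNA, with members that had a group at 0 set at the floor of 3 counts. Labels give the members called higher and lower in the difference, of those tested. The NF-kB and cytokine list has the lowest median in control siRNA, and the histone list has the highest medians in both arms, with 8 members lower.

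Markers of other cell types were followed beside these lists. The summed level of 15 basal mammary markers was 12321 to 22991 CPM in siYT_XMU, 6535 to 18888 in siYT_DMSO, 6556 to 8653 in siC_XMU and 8062 to 9557 in siC_DMSO, with 0 of 15 tested members called in the difference. For 10 fibroblast markers the sums were 26.8 to 144 CPM in siYT_XMU, 25.4 to 74.2 in siYT_DMSO, 34.4 to 50.2 in siC_XMU and 28.3 to 45.7 in siC_DMSO. For 10 endothelial markers they were 43.1 to 71.8, 54.2 to 70.5, 36.3 to 44.2 and 74.5 to 100.1 CPM in the same order of groups, with 5 of the 10 at 0 in every siYT_DMSO library. None of the tested fibroblast or endothelial markers was called in the difference, and the part of cell composition in the results was not tested.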

How the data were processed

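Poly(A) RNA was sequenced as stranded, paired-end libraries, per the labels' protocols. The submitters' processing notes name cutadapt, FastQC, HISAT2, StringTie, edgeR and the build GRCh38.p13, and how reads were assigned to genes and whether strand was used are not given in the sources used here. The authors deposited a raw count and an FPKM value per gene and library. From the counts, edgeR 4.0.16 (R 4.3.3) was fitted with 4 group means, TMM factors, its default filter on low counts and the quasi-likelihood test, which left 8 residual degrees of freedom. P-values were adjusted by the Benjamini-Hochberg method over all genes tested, and calls are at an adjusted p of 0.05. The SE is the log2 value divided by the square root of F. Alternatives were DESeq2 1.42.0, limma 3.58.1 (voom, and log2 FPKM), other scalings and filters, a replicate block and leaving out each library.

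The members, gene lists and tests were chosen with earlier results of these data known. Named genes were 9 fixed genes, the genes with the largest difference in each class among calls also made without siYT_XMU c, if the group with the highest mean reached an FPKM of 5 (5 each, and 3 each for weakened and strengthened), and up to 3 called members of each list with the smallest adjusted p. Other list members named, and VPS9D1, were chosen after their values were seen, and some genes that the rule or the lists hold are not reported here. Totals ran from 8243351 to 67953633 counts per library, and intervals for counting error do not cover differences between cultures. Of 18 correlations between deviations of same-lettered libraries 2 were over 0.1, where pairing was taken to need all, so letters were not used as pairs. RefSeq promoter windows (GRCh38.p14) were matched by gene ID for 12513 of 18143 genes. Figures used matplotlib 3.10.9.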

Additional observations from a re-analysis of the deposited data

Results flagged for a closer look

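The test of the difference between the 2 siRNA arms itself passed the threshold for 156 genes with a higher and 314 genes with a lower drug effect after YAP/TAZ siRNA. Named genes are listed here because that difference passed, with the log2 difference (drug effect after YAP/TAZ siRNA minus drug effect in control siRNA, edgeR's quasi-likelihood test). Groups of 3 libraries are too small for a test for single outlying libraries.

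Among lost rises the log2 difference was -3.46 for IL17C, -3.35 for H2BC5, -3.09 for H2BC4, -2.92 for H2BC21, -2.73 for H2AC19, -2.48 for H2AC6, -1.51 for DNAJB9, -1.91 for IRF7 and -0.86 for GCLC. Among lost falls the log2 difference was 7.19 for PGLYRP4, 3.70 for KRT80, 3.52 for ADGRF1, 2.91 for ICAM1, 2.71 for KCNN4, 2.41 for CCND1, 2.48 for CXCL1, 1.49 for DKC1, 1.9 for FAT2, 1.30 for MCM3, 2.23 for CD14 and 0.89 for CALD1. Among gained rises the log2 difference was 7.21 for PYGM, 5.64 for NR4A1, 4.69 for GEM, 3.95 for FOSB, 3.74 for LPAR6, 2.06 for IER3, 1.99 for TNFAIP2, 2.70 for PFKFB3, 1.05 for NOLC1 and 0.96 for NCL. Among gained falls the log2 difference was -4.21 for DLX3, -3.47 for PLPP3, -3.20 for NAB2, -3.12 for LURAP1L, -3.09 for MAPK7, -1.51 for KLF3, -1.74 for CEBPB, -1.5 for CEBPG, -1.45 for ARNT and -1.55 for GATA3. Among reversed responses the log2 difference was 6.73 for DUSP2, 5.40 for CXCL8, 2.70 for VPS9D1-AS1, -2.54 for TRIM62 and -2.38 for GPRIN1. Among weakened responses the log2 difference was 3.21 for BDKRB2, 2.33 for CYP1B1 and 2.31 for JADE2. Among strengthened responses the log2 difference was 3.40 for VGF, -2.82 for THBD and -2.57 for PRDM1.

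The differences of IL17C, PGLYRP4, PYGM and GEM rest on a group at or near 0 counts and are no measured folds. That of DLX3 rests in part on 0 counts in siYT_XMU c, and was -3.845 without that library. The part of depth and ribosomal RNA share in these results was not tested gene by gene.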

How the results depend on the processing

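With all 12 libraries 156 genes were higher and 314 lower, with 154 lost, 243 gained and 36 reversed responses. Leaving out 1 library at a time gave 32 to 398 genes higher, 54 to 608 lower, 17 to 362 lost, 53 to 464 gained and 11 to 77 reversed. DESeq2 called 854 higher and 949 lower (618 lost, 831 gained, 113 reversed), and voom 494 higher and 726 lower (508 lost, 404 gained, 102 reversed). On log2 FPKM, a pseudocount of 0.1 gave 62 lost and 10 reversed, and a pseudocount of 1 gave 252 higher, 496 gained and 15 reversed. Without a filter on low counts 23 were reversed, upper quartile scaling gave 248 higher, and an adjusted p of 0.1 gave 432 higher, 735 lower, 393 lost, 561 gained and 96 reversed. The labels do not say that letters pair the libraries, and with a replicate block 471 genes were called, 379 of them shared with the 470, while for 11 of 12 libraries the same letter gave the highest correlation, a hint from the data and not from the design. Among the named genes the calls of IL17C, PGLYRP4, THBD and GCLC were lost with the replicate block. DESeq2 shared 467 of the 470 calls, voom 454, RLE scaling 430 and upper quartile scaling 391. The sign of the difference turned for STK3, to -0.177 and -0.083 on log2 FPKM with 0.1 and 1 added and to -0.008 without siYT_XMU c (range over single libraries left out -0.008 to 0.276). With 1 added to FPKM it turned for YAP1 (0.017), IL17C (0.241) and PGLYRP4 (-0.118). For STK4 it turned to 0.011 without siYT_XMU b (range -0.420 to 0.011). Over the alternatives 1159 values of the genes chosen by the naming rule kept direction and side of the threshold, 307 lost the threshold, 15 gained it and 7 turned. The cause was not tested.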
